A study of Mus musculus with 26 samples.

Results

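Promoters are the stretches of DNA around a gene's start, where transcription factors, the basal machinery and RNA polymerase assemble. An active promoter in brain tissue usually lies in open chromatin, a short region with few nucleosomes. ATAC-seq reads such regions because the Tn5 transposase cuts and tags DNA where it can enter. The regions described here are the promoter peaks listed as open in heterozygous Adnp mutant frontal cortex and in no overlapping interval of the wild-type list. Adnp encodes a zinc-finger and homeodomain protein of the ChAHP chromatin complex, which holds the remodeller CHD4 and an HP1 protein and is known to compete with the insulator protein CTCF for some sites.

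A peak of the mutant list was a member when it shared no base with any wild-type peak and overlapped the window from 1 kb before to 1 kb after a gene start. The rule gave 1963 members, out of 30862 peaks in the mutant list and 50134 peaks in both lists. Membership was read from the peak lists, so the presence of these peaks in the mutant list is a description and carries no test. The deposited lists hold 1 set of intervals per genotype with no height, fold or q value, so no replicate spread could be given for any peak. The animals with the mutation, labelled Mutant and HET, had 1 Adnp allele with a frameshift, and the comparison animals were wild-type (WT) littermates, both sampled as adolescent frontal cortex. The series held 26 samples, of which 14 RNA libraries (7 HET, 7 WT) and the peak lists of the HET and WT genotypes were used. Each genotype had 3 labelled ATAC-seq samples, while the protocol speaks of n = 2 tissues and the name of each list carries 2 numbered sample labels (1 and 3 for both), so which of the 3 entered a list is not certain. The RNA libraries held 32814841 to 48291175 counts over genes. The 7 libraries of a genotype are treated as separate mice, as the labels' protocols describe, and nothing links the mice of the RNA libraries to those of the peak lists.

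The HET list was the longer of the pair, with 30862 peaks against 19272 in the WT list, and covered 14616950 bp against 10414419 bp. When the HET list was trimmed to its 19272 widest peaks, which are 62.4% of it, 988 members were left. The depth behind each list is not known here, so list length, depth and genotype cannot be told apart for any count of members.

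The RNA levels of cell type markers also differed between libraries. The summed level of the 10 excitatory neuron markers ran from 1015 to 6633 CPM, a count scaled by the size of its library, in HET and from 2892 to 8658 CPM in WT, with no marker at 0, and the lowest libraries were HET 4 and WT 4. Their mean on the log2 CPM scale was 6.16 ± 1.1 in HET and 7.33 ± 0.72 in WT (SD, n = 7 each). The mean of the 8 thalamic markers was 4.82 ± 1.27 on the log2 CPM scale in HET and 3.90 ± 0.89 in WT (SD, n = 7 each), and that of the 10 striatal markers 5.57 ± 1.49 and 5.43 ± 1.27. In bulk tissue, fewer cells of a type and less RNA per cell cannot be told apart. The mean of the 5 B cell markers was 0.15 ± 0.10 in HET and 0.52 ± 0.09 in WT, with 1 of these genes called lower, and that of the 7 microglia markers 4.83 ± 0.22 and 5.08 ± 0.09. A fit with the excitatory, striatal and thalamic means as covariates was made for all genes. For the called genes and the largest changes that were not called, its value is given where it moved the log2 fold change by over 1.5 times.

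The 4 promoter sequences below, from RefSeq on GRCm38.p6, belong to the called genes with the smallest p among those whose promoter entry overlaps its HET-only peak. Each runs from 250 bases before to 50 bases after the annotated start, 5′ to 3′ along the gene. Capitals mark matches, on either strand, to any of the motifs searched: the E-box CACGTG, the E2F motif TCCCGC, the ETS motif CCGGAAG, the GC box GGGCGG, the CRE half-site TGACGT, the AP-1 motif TGANTCA, the TATA motif TATAAA, the box CCAAT, the NRF1 half-site GCGCATG and the CTCF core. E2F and GC box matches can overlap each other, as can CTCF core and GC box matches.

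Prss41: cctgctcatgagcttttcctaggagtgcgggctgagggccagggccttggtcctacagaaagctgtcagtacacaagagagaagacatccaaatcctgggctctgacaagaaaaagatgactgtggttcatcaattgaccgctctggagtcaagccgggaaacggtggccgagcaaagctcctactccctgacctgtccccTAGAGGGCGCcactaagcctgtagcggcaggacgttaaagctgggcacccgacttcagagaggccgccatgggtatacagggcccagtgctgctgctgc
Gm15910: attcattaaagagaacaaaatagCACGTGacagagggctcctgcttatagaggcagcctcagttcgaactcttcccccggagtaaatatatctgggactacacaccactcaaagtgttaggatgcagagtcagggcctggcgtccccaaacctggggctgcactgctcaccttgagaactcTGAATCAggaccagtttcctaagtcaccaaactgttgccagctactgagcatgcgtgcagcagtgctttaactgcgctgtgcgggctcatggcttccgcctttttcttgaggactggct
Slc1a6: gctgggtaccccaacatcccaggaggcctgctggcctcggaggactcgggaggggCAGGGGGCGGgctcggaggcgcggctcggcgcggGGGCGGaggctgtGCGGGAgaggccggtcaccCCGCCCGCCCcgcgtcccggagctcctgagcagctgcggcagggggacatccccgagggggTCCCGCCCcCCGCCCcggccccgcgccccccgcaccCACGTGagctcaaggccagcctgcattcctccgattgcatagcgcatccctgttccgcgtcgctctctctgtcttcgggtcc
Zfp783: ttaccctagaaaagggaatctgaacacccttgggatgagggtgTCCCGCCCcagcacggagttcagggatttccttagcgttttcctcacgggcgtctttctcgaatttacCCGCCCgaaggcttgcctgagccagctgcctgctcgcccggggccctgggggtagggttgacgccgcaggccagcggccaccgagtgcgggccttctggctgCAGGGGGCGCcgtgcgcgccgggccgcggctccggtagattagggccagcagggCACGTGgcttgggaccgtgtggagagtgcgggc

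The Prss41 entry lies at chr17:23844107-23844406 on the minus strand, with 100 of its 300 bases inside the HET-only peak. Its only capitals are a CTCF core match at bases 202 to 211, which lies inside the peak, with its centre 28 bp upstream of the Ensembl start used for the windows (position 23844172), which is not the start used for the RefSeq entry. The Zfp783 entry, at chr6:47942925-47943224 on the plus strand, has a CTCF core match at bases 214 to 223, inside the peak and centred 29 bp upstream of the Ensembl start. The GC-rich entry of Slc1a6, at chr10:78780246-78780545 on the plus strand, has 75.7% G and C, 6 GC boxes and a CTCF core match at bases 56 to 65. The Gm15910 entry, at chr10:120857379-120857678 on the plus strand, has 51.7% G and C, an E-box and an AP-1 match, both outside its peak. These matches are letters in a window and not binding sites.

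HET-only promoter peaks were narrow. Their median width was 347 bp (interquartile range 233.0 to 471.5 bp, full range 139 to 1955 bp), close to the 360 bp median of the 422 promoter peaks found in the WT list alone. The narrowest widths were more common among members, with a lower quartile of 233.0 bp against 303.2 bp for those WT-only peaks. The 9089 promoter peaks shared by the lists had a median of 679 bp in the HET list. Widths of 500 bp or more were seen for 415 members (21.1%) and for 78.3% of shared promoter peaks. Away from promoters, the 11655 HET-only peaks were narrower again, with a median of 270 bp. Peaks overlap a second list more easily when they are wide, so a low width is partly built into the rule.

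**Figure D1:**
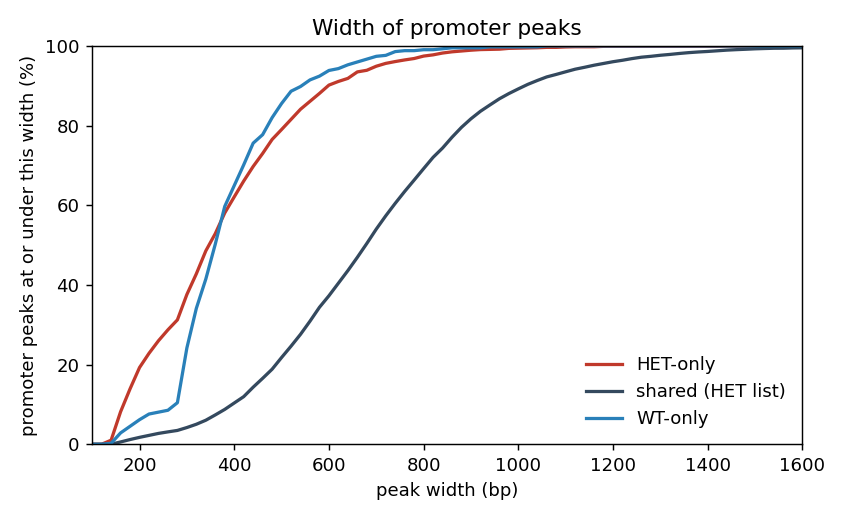
Cumulative share (%) of promoter peaks at or under each width (bp), for HET-only, shared and WT-only promoter peaks. The HET-only and WT-only lines lie to the left of the shared line, with medians of 347, 360 and 679 bp. At 200 bp the HET-only line is above the WT-only line (19.3% against 6.16%), and they come close at 360 bp (52.9% against 50.2%).

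Of the 11052 promoter peaks of the HET list, 17.8% were HET-only, while 4.47% of the 9448 WT promoter peaks were WT-only. Promoters were a small fraction of what the HET list had alone: 14.4% of the 13618 HET-only peaks lay at promoters, against 52.7% of the shared peaks and 20.2% of the 2092 WT-only peaks. By autosome, the HET-only share of HET promoter peaks ran from 13.2% on chromosome 19 (46 of 349 peaks) to 20.1% on chromosome 1 (138 of 685), with 22.3% on X (78 of 349), and both of the 2 promoter peaks on Y were HET-only. The WT-only share of WT promoter peaks was also highest on X among these 3, at 6.29%, against 5.43% and 5.10%.

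Most members had no WT peak within 1 kb. The median gap to the nearest WT peak was 24.0 kb, and 602 of the 1963 members had one within 10 kb, 231 within 1 kb and 144 within 500 bp. A gap above 0 is set by the rule, and the gap was not compared with that of other places in the genome. Just inside the rule were the peaks at Ramac, Ripply2 and the Gm5577 and H1fx pair, 2, 3 and 3 bp from a WT peak. Just outside it, sharing 2, 3 and 4 bp with a WT peak, were those at Gm11266, at the Gm45338, Rtp4 and Masp1 starts, and at Mir124a-1hg.

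The 10 widest members included several at genes with neuronal roles. The widest, 1955 bp at chr14:66279159-66281113, covered the start of Ptk2b, a calcium-regulated tyrosine kinase, and lay 12506 bp from the nearest WT peak. The next, 1436 bp at chr9:103111494-103112929, covered the start of Rab6b, a Rab GTPase of neuronal Golgi traffic. Tceal9 had a peak of 1177 bp. A peak of 1165 bp covered the start of the diacylglycerol kinase gene Dgkd and reached the window of Gm19582. Gabrg1, a GABA-A receptor subunit gene, had 1105 bp and stood 182754 bp from any WT peak. Abcb4 had 1089 bp, the thioredoxin reductase gene Txnrd2 1085 bp, the calcineurin regulator Rcan2 1048 bp, the semaphorin Sema4d 1042 bp and the Gm11592 and Npepps pair 1027 bp. None of these genes passed the RNA test in edgeR or DESeq2, and limma-voom called Rab6b lower. Gm19582 and Gm11592 were too low to be tested, and the fitted log2 fold changes of the others ran from -0.43 for Ptk2b to 0.41 for Gabrg1. Ptk2b was the most scattered of them, from 91 to 687 CPM in HET and from 398 to 578 CPM in WT.

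The members lay at the windows of 2218 genes, in 2262 pairs of a peak and a gene. A single window was reached by 1679 members and 2 or more by 284, and 236 members lay in windows of starts on both strands. Of the 2218 genes, 1953 had HET-only peaks alone, 204 also had a shared peak and 63 also had a WT-only peak. The gene start itself lay inside the peak in 46.5% of pairs (1052), against 79.2% for shared peaks and 37.6% for WT-only peaks. The peak centre was within 250 bp of the start in 56.1% of pairs, against 68.9% and 47.6%. Centres lay at a median of 46.5 bp downstream of the start, against 31.0 bp for shared and 132 bp for WT-only peaks.

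**Figure D2:**
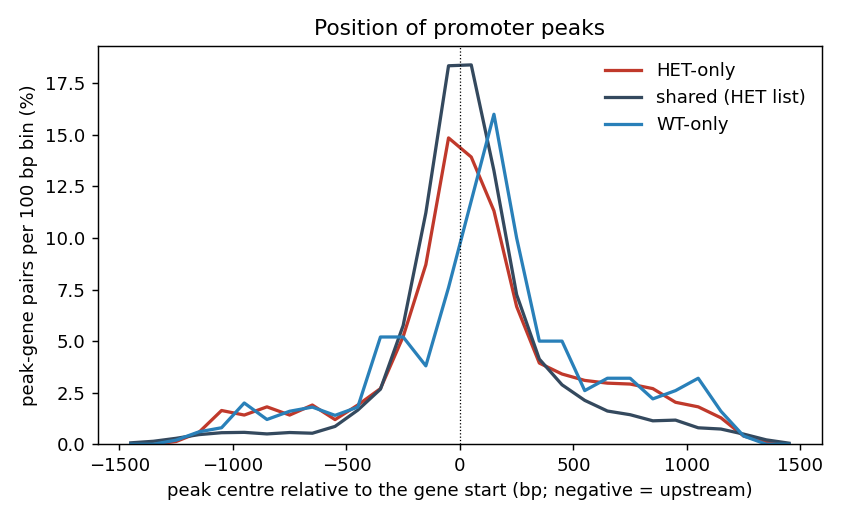
Share of peak-gene pairs (%) in 100 bp bins of the distance (bp) from the gene start to the peak centre, for 2262 HET-only, 11798 shared and 500 WT-only pairs. HET-only centres gather at the start as shared ones do, with a lower top and more pairs over 500 bp away (27.4% against 14.4%).

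A second peak beside an existing one was the pattern at Adnp itself. The HET-only peak, 154 bp at chr2:168206230-168206383, lay 729 bp inside the gene from its start and 590 bp from the WT peak at chr2:168206974-168207603, which a HET peak at chr2:168206967-168207628 overlapped. Adnp RNA ran from 5.34 to 8.68 CPM in HET, with a median of 6.43, and from 5.67 to 7.84 CPM in WT, with a median of 6.19. The groups overlapped, and the fitted log2 fold change was 0.07 (SE 0.13, adjusted p = 0.772 in edgeR). A frameshift need not lower the RNA, so this level does not check the labels. Bptf (a remodeller subunit), Pds5a (a cohesin regulator) and Gapdh likewise had a shared peak and a HET-only peak in 1 window.

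The genes were more often protein-coding than annotated genes at large, and less often than genes with shared peaks. Of the 1841 that matched a RefSeq entry, 79.7% were protein-coding and 13.8% long noncoding RNAs, against 88.5% and 8.70% for genes with a shared promoter peak and no HET-only one and 55.2% and 12.3% for all matched genes. For the 427 matched genes with a WT-only promoter peak these shares were 82.2% and 12.2%. Names of predicted genes or clones made up 31.4% of the members' genes, 20.1% of the genes with shared peaks and 56.6% of all annotated genes. Among families, which were picked by their symbol prefix after the counts were seen, members lay at 37 of 417 Zfp zinc-finger genes (8.87%), 31 of 379 Slc transporter genes (8.18%), 36 of 1179 microRNA genes (3.05%) and 4 of 1407 olfactory receptor genes (0.284%). The share was 4.00% over all annotated genes and 9.16% over tested genes, and 35 of the 37 Zfp and 30 of the 31 Slc genes were tested.

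RNA from these genes was present at intermediate levels. Their median level was 1.69 CPM per kb of exon (interquartile range 0.158 to 7.70), averaged over the 14 libraries. Genes with a shared promoter peak and no HET-only one had a median of 4.75, those with a WT-only peak 1.92 and those with no promoter peak 0.00230 CPM per kb. A level of at least 1 CPM per kb was reached by 56.7% of the members' genes and 74.7% of genes with shared peaks. The level was higher where the peak covered the start, with a median of 3.06 CPM per kb for those 1052 genes and 0.778 for the other 1166. The 204 genes with both kinds of peak had a median of 4.90 CPM per kb. These levels describe the annotation classes and were not tested.

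**Figure D3:**
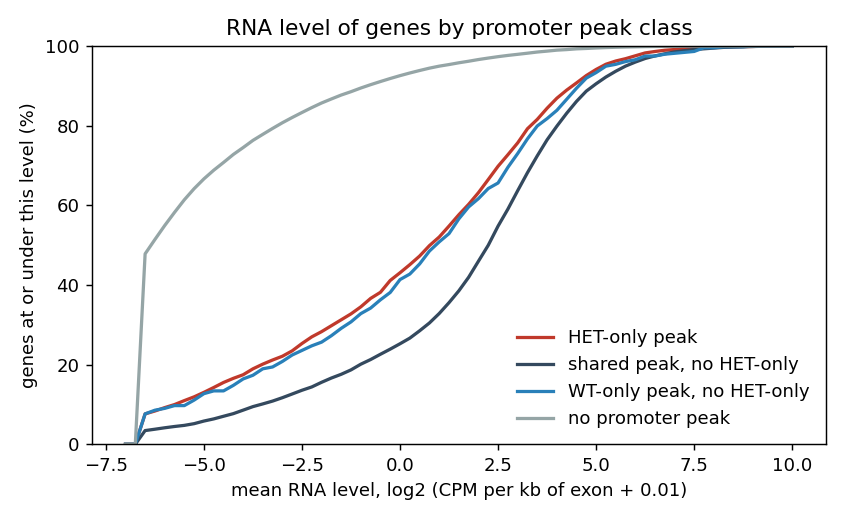
Cumulative share (%) of genes at or under each mean RNA level, log2 of CPM per kb of exon plus 0.01, by promoter peak class. The line of genes with HET-only peaks runs beside that of genes with WT-only peaks, between the lines of genes with shared peaks and genes with no promoter peak.

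Wider members had more highly expressed genes in reach. With the members sorted by width into 4 classes of similar size, the narrowest class ran from 139 to 233 bp. There the median level of the highest gene in reach was 1.30 CPM per kb of exon and the start was covered in 34.8% of pairs. In the widest class, 472 to 1955 bp, these were 4.09 CPM per kb and 62.8%. The second and the third class lay between, at 1.97 and 3.07 CPM per kb. The rank correlation across the members was weak, with Spearman's rho at 0.16. A wider peak can reach more gene windows, and the highest gene among them was taken, so part of the rise can be built into the measure. Members share a peak list and are not replicates.

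The 10 highest levels were those of housekeeping and abundant brain genes. Apoe, the lipid carrier made by astrocytes, stood at 681 CPM per kb of exon, and its HET-only peak was only 154 bp wide, over its start. Ptgds, which makes prostaglandin D2, stood at 593, the neuronal elongation factor Eef1a2 at 546, the glycolytic enzyme Gapdh at 431, the thymosin Tmsb4x at 365, Rpl36 at 333, Itm2c at 327, the cytoplasmic actin Actg1 at 248, Bex2 at 228 and Rab6b at 205 CPM per kb. Of these, Gapdh also had a shared peak in its window and Actg1 a WT-only peak 127 bp away. Gapdh, Actg1, Tmsb4x and Rpl36 have processed pseudogene copies in the mouse genome, which makes their counts less certain. None of the 10 passed the RNA test in edgeR, while DESeq2 called Eef1a2 lower and limma-voom Eef1a2, Tmsb4x and Rab6b. Their fitted log2 fold changes lay between -0.24 (Eef1a2 and Tmsb4x) and 0.21 (Ptgds).

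Genes with HET-only promoter peaks did not move as a body in HET RNA. Of the 2218 genes, 1654 passed the low-count filter, 18 were higher and 5 lower in HET (1.09% and 0.302%), at adjusted p under 0.05 in edgeR. Over all 18050 tested genes, 0.587% were higher and 0.382% lower. In either direction, 1.39% of the members' genes were called against 0.97% of all tested genes. The median log2 fold change was 0.014 for the members' genes and 0.017 for all tested genes, and 52.7% and 53.3% were above 0. Within the members, the median was 0.025 for genes with HET-only peaks alone and -0.056 for those that also had a shared peak. It was -0.006 for genes with a shared peak and no HET-only one and 0.093 for genes with no promoter peak. These differences were not tested. At unadjusted p under 0.05 stood 426 members' genes (25.8%), against 22.2% of all tested genes. Every HET library lay above every WT library for 8 of the genes (0.484%, against 0.432% of all tested genes), and every HET library lay below for another 8 (0.484%, against 0.283%). The median level of the members' genes per library ran from 1.65 to 1.75 CPM per kb in HET and from 1.43 to 1.73 in WT, and these ranges overlapped.

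The calls turned on the tool and on single libraries. DESeq2 called 89 of the genes higher and 77 lower (4.54% and 4.36% of all genes it tested), and limma-voom with sample weights 110 and 110 (5.16% and 5.29%). Without WT 4, edgeR called 90 higher and 94 lower (4.34% and 4.83% of all tested genes), and without HET 6 it called 79 and 52 (3.32% and 2.77%). Without HET 1, HET 2, HET 4, HET 7, WT 1, WT 2, WT 3, WT 5, WT 6 or WT 7, each in turn, it called 1 to 4 higher and 0 or 1 lower, with 11 to 41 calls over all tested genes. Without HET 3 the counts were 10 and 3 (0.417% and 0.181% of all tested genes), and without HET 5 they were 18 and 8 (0.767% and 0.553%). At adjusted p under 0.1 in edgeR they were 70 and 59 (3.51% and 3.11% of all tested genes). With no low-count filter they were 11 and 2 (0.189% and 0.11%), and with a filter of 1 CPM in 7 libraries 18 and 10 (0.796% and 0.609%). With the marker means as covariates, 2 genes were called higher and 1 lower (0.0776% and 0.0166% of all tested genes).

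Genes with a shared promoter peak and no HET-only one had 36 higher and 46 lower calls among 9834 tested, and genes with no promoter peak 52 and 18 among 6287. Genes with a WT-only peak and no HET-only one had 1 higher and 0 lower calls in edgeR among 330, with 32 higher and 54 lower at unadjusted p under 0.05. DESeq2 called 10 of the 330 higher and 27 lower, and limma-voom 17 and 26. For genes with shared peaks the DESeq2 calls were 333 and 455, and for genes with no promoter peak 341 and 187. Within the members, genes whose start was inside the peak had 13 higher and 3 lower calls among 900 tested, and the others 5 and 2 among 754. DESeq2 called 58 and 35 of the first set and 31 and 42 of the second. The difference between these classes was not tested.

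**Figure D4:**
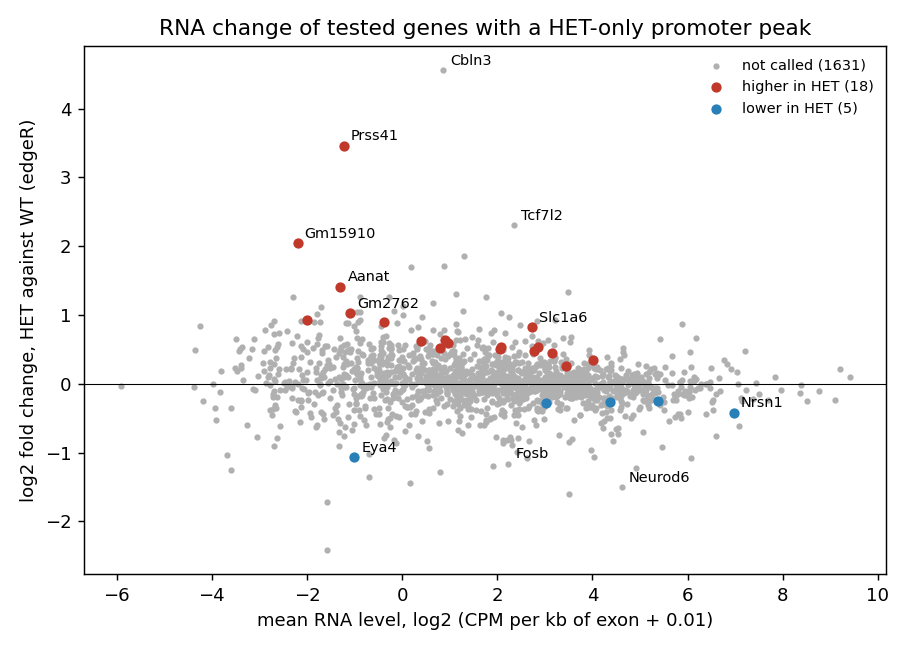
Log2 fold change of HET against WT RNA (edgeR) for the 1654 tested genes with a HET-only promoter peak, against their mean level as log2 of CPM per kb of exon plus 0.01. Red points mark the 18 genes called higher, blue points the 5 called lower and grey points the genes that did not pass. The points centre on 0, and Prss41 stands highest among the called genes.

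Prss41, a serine protease gene known from the testis, had the largest called rise. Its HET-only peak, 343 bp at chr17:23843864-23844206, covered the gene start and lay 14364 bp from the nearest WT peak. Prss41 RNA stood at 1.87, 1.9, 2.11, 2.57, 1.9, 1.12 and 2.70 CPM in HET 1 to 7 and at 0.310, 0.142, 0.0465, 0.198, 0.153, 0.156 and 0.267 CPM in WT 1 to 7. Every HET library lay above every WT library, with the lowest HET level several times the highest WT level. The log2 fold change was 3.46 (SE 0.31, 95% interval 2.80 to 4.12, adjusted p = 6.22e-05 in edgeR). Among the 23 called genes, Prss41 alone was called with each of the 14 libraries left out, with a log2 fold change of 3.29 to 3.64, and it was also called with the marker means as covariates (3.32, adjusted p = 0.000451 in edgeR). It was the only gene of a 44-gene germline and meiosis list with a HET-only promoter peak. That list was drawn up with its rise known.

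The predicted gene Gm15910 rose from 0.239 ± 0.134 CPM in WT to 0.996 ± 0.243 CPM in HET (SD, n = 7 each), a log2 fold change of 2.04 (SE 0.34, adjusted p = 0.0239 in edgeR), with no overlap between the groups. Its peak, 328 bp at chr10:120857614-120857941, covered the start. Aanat, the enzyme gene of melatonin synthesis best known from the pineal gland, had a 302 bp peak whose near edge lay 494 bp past the start. Aanat RNA stood at 0.625, 0.970, 0.622, 1.26, 0.727, 1.46 and 1.06 CPM in HET 1 to 7 and at 0.284, 0.474, 0.395, 0.395, 0.521, 0.234 and 0.214 CPM in WT 1 to 7. All 7 HET libraries were above all 7 WT libraries (log2 fold change 1.41, SE 0.27, adjusted p = 0.0375 in edgeR).

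Among genes for transport and transcription, Slc1a6, a glutamate transporter known from cerebellar Purkinje cells, rose from a median of 9.62 CPM in WT (8.11 to 13.6) to 18.6 CPM in HET (11.5 to 24.0). Its log2 fold change was 0.83 (SE 0.15, adjusted p = 0.0332 in edgeR), and 6 of 7 HET libraries were above every WT library. The 767 bp peak ended 7 bp before the start. The zinc-finger gene Zfp783 rose from a median of 10.3 CPM (8.43 to 12.2) to 14.3 CPM (13.4 to 21.1) with no overlap between the groups (log2 fold change 0.64, adjusted p = 0.0352 in edgeR). The covariate fit gave it 0.37 (adjusted p = 0.107 in edgeR). Slc9a7, a sodium and proton exchanger of the Golgi, rose by a log2 fold change of 0.47 with a 707 bp peak over its start.

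The other called rises named here were of 0.34 to 1.03 on the log2 scale, at adjusted p of 0.0352 to 0.0482 in edgeR. They were Gm2762 (1.03), the sperm flagellar gene Spef2 (0.93), Gm33533 (0.90), the engulfment gene Elmo3 (0.63), the BEACH-domain gene Nbeal2 (0.60), the tetraspanin Tspan4 (0.54), the cytochrome P450 gene Cyp2j6 (0.53), the cGMP phosphodiesterase Pde9a (0.51), the formin Fhod1 (0.51), the tRNA-processing gene Elac1 (0.44) and the TBK1 adaptor Tbkbp1 (0.34). Fitted with the marker covariates, Nbeal2 was at 0.37, Cyp2j6 at 0.32 and Elac1 at 0.27. Of these, Gm33533 and Pde9a had every HET library above every WT library.

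The 5 falls were small except for Eya4. Eya4, a transcriptional coactivator and phosphatase of the eyes absent family, stood at 2.34, 2.65, 3.15, 2.26, 3.38, 3.86 and 3.14 CPM in HET 1 to 7 and at 7.47, 7.01, 8.18, 4.03, 6.59, 5.19 and 5.02 CPM in WT 1 to 7. All HET libraries were below all WT libraries, with WT 4 the lowest of its group (log2 fold change -1.06, SE 0.17, adjusted p = 0.0197 in edgeR). Its peak is at the edge of the rule, with its near end 999 bp past the start. With the marker means as covariates the log2 fold change was -0.70 (adjusted p = 0.0655 in edgeR). Mrps17 and Mrps21, proteins of the small mitochondrial ribosomal subunit, fell by 0.28 and 0.25 on the log2 scale, and Ubl4a, which acts in delivering tail-anchored proteins to membranes, by 0.26. Mrps17 was at -0.17 with the marker covariates. Mrps17, Mrps21 and Ubl4a had every HET library below every WT library and a peak over the start. Nrsn1, a neuronal vesicle membrane protein gene, fell by 0.42 from a median of 387 CPM in WT to 293 CPM in HET, and the groups overlapped.

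**Figure D5:**
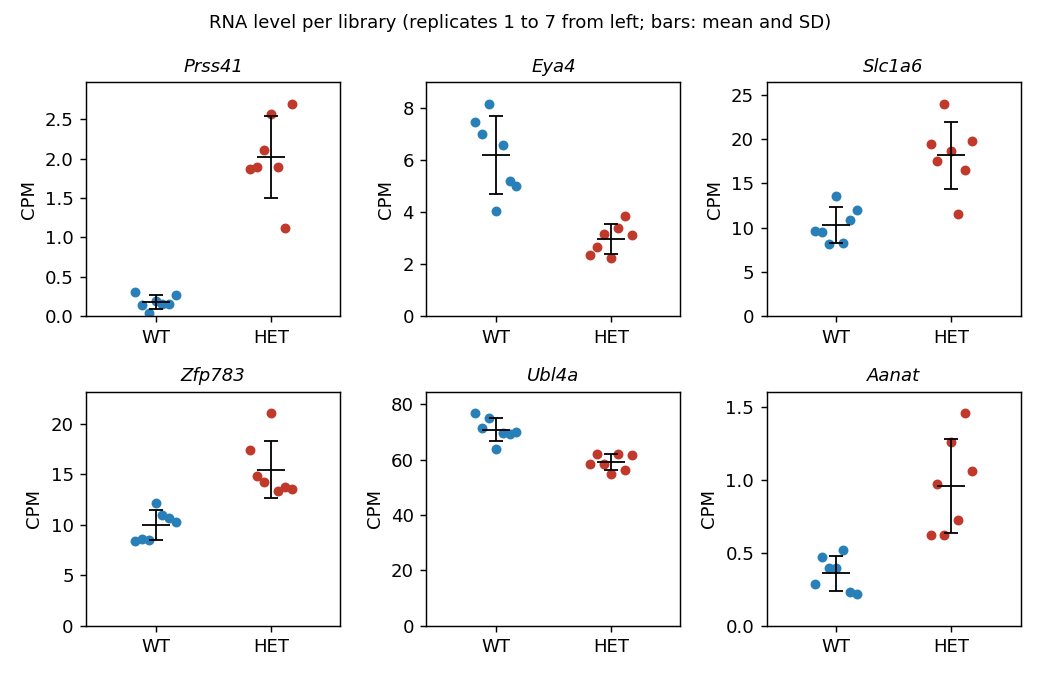
RNA level (CPM) in each of the 7 WT and 7 HET libraries for 6 called genes with a HET-only promoter peak, with the mean and SD as bars. The HET points lie apart from the WT points for Prss41, Eya4, Zfp783, Ubl4a and Aanat, and 1 HET library lies within the WT range for Slc1a6.

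Apart from Prss41, the 22 called genes passed in 2 to 9 of the 14 leave-one-out fits, and their highest adjusted p over those fits was 0.0616 to 0.114 in edgeR. Eya4 and Gm15910 lost their calls without 5 libraries each, for both of them HET 1, HET 2, HET 7 and WT 5, with WT 1 for Eya4 and WT 6 for Gm15910. The other 20 also lost theirs without HET 1, HET 2, HET 4, HET 7, WT 1, WT 2, WT 5 and WT 6, each left out in turn. Over the 14 fits the log2 fold change of Eya4 ran from -1.15 to -0.99. Those of Gm15910 and Spef2 ran from 1.88 to 2.22 and from 0.81 to 1.04. DESeq2 and limma-voom each called all 23. With the marker means as covariates all 23 kept their direction, and Prss41 and Gm2762 passed.

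The largest fitted rises that did not pass in edgeR rested on a few libraries. Cbln3, known from cerebellar granule cells, reached 69.8 CPM in HET 3 and 42.9 in HET 7, with 0.416 to 1.56 CPM in the other HET libraries and 0.325 to 1.31 CPM in WT (log2 fold change 4.56, adjusted p = 0.0739 in edgeR). Tcf7l2, a Wnt pathway transcription factor abundant in the thalamus, ran from 4.40 to 261 CPM in HET, with HET 4 highest, and from 3.46 to 48.1 CPM in WT. Its log2 fold change of 2.30 (adjusted p = 0.126 in edgeR) was 0.81 with the marker means as covariates. Tcf7l2 is itself among the thalamic markers, so part of that drop can be built in. Tph2, the serotonin-synthesis enzyme of the raphe, reached 51.1 CPM in HET 1 and 21.2 in HET 2 and stood at 0.437 to 1.51 CPM in the other HET libraries (log2 fold change 1.86, or 0.48 with the marker means as covariates, adjusted p = 0.326 in edgeR without them). Slitrk6, a neuronal adhesion protein, had a log2 fold change of 1.71, and 0.34 with the covariates. DESeq2 called Cbln3 (adjusted p = 0.0012) and Tcf7l2 (adjusted p = 0.0405), and limma-voom called none of the 4.

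The largest fitted falls that did not pass in edgeR were those of Adra1d, an adrenergic receptor (-1.61), Neurod6, a transcription factor of cortical excitatory neurons (-1.50), Glt8d2 (-1.28), Epop, a Polycomb-associated protein (-1.23), and Fosb, an activity-induced transcription factor (-1.16). With the marker means as covariates these were -0.40, -0.06, -0.38, -0.16 and -0.89. DESeq2 called Adra1d, Glt8d2 and Fosb lower (adjusted p = 0.0206, 0.00685 and 0.000592), and limma-voom called these and Epop lower. Neurod6 is itself among the excitatory markers. The Glt8d2 window also held a shared peak. Fosb stood at 7.19, 25.6, 20.8, 15.2, 22.2, 21.0 and 14.7 CPM in HET 1 to 7 and at 27.4, 35.2, 41.5, 29.3, 71.1, 39.0 and 40.6 CPM in WT 1 to 7. All HET libraries were below all WT libraries, at an adjusted p of 0.0506 in edgeR. The 534 bp HET-only peak of Fosb ended 56 bp before the start.

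Against lists of genes for the tissue and for Adnp, the share with a HET-only promoter peak is set beside 9.16% of all tested genes and 4.00% of all annotated genes. Genes whose window also held a shared or WT-only peak count toward these shares. For the counts in these lists, 22.2% of all tested genes stood at unadjusted p under 0.05 in edgeR. DESeq2 called 4.54% of all genes it tested higher and 4.36% lower, and limma-voom 5.16% and 5.29%. Of 47 excitatory postsynapse genes, 9 had a HET-only promoter peak (19.1%): the glutamate receptor genes Gria1, Gria3 and Grm5, the scaffold genes Dlg1, Dlgap2, Dlgap3, Dlgap4 and Homer2, and the AMPA receptor auxiliary gene Cacng8. None of the 9 passed in edgeR or DESeq2, 3 were called lower by limma-voom, 6 had an unadjusted p under 0.05 in edgeR, and their median log2 fold change was -0.31, beside -0.27 for the tested genes of the list. Dlgap3 RNA ran from 261 to 509 CPM in HET and from 331 to 575 CPM in WT, and Gria1 from 402 to 552 and from 344 to 496 CPM. Of 44 presynaptic release genes, 3 had a HET-only promoter peak (6.82%), a share under that of all tested genes. None of the 3 passed in edgeR, and DESeq2 and limma-voom each called 1 lower. The excitatory marker level differed between libraries as given above, and its part in these values was not tested.

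Of 34 cortical layer transcription factors, 6 had a HET-only promoter peak (17.6%), among them Neurod6, Bcl11b and Cux1. None passed in edgeR, DESeq2 or limma-voom, and 1 had an unadjusted p under 0.05 in edgeR. Of 28 immediate early genes, 4 had one (14.3%): Nr4a2, whose window also held a WT-only peak 258 bp away, Dusp5, Npas4 and Fosb. None passed in edgeR, DESeq2 and limma-voom each called Fosb lower, all 4 had a negative log2 fold change, and their median was -0.79 beside -0.86 for the list. Of 60 actin cytoskeleton genes, 8 had a HET-only promoter peak (13.3%). Of these 8, 7 had an unadjusted p under 0.05 in edgeR, where 22.2% of all tested genes did, and none was called. DESeq2 called 2 of the 8 lower, and limma-voom 4 lower and 1 higher. The most abundant were Actg1 and the actin-severing protein gene Cfl1, each with a WT-only peak in its window as well. Cfl1 ran from 406 to 500 CPM in HET and from 458 to 541 CPM in WT. Of 40 GABA synapse and interneuron genes, 5 had a HET-only promoter peak (12.5%): Gad2, which makes GABA, the receptor subunit genes Gabra5, Gabrg1 and Gabrg3, and Dlx2.

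Among chromatin genes, 3 of 15 CTCF and cohesin genes had a HET-only promoter peak (20%), the cohesin subunit gene Stag2, Pds5a and the cohesin deacetylase gene Hdac8. Of 32 BAF and ISWI remodeller genes, 4 had one (12.5%): Bptf, Baz2a, Arid1b and Dpf3. In the ChAHP and heterochromatin list, 2 of 28 had one (7.14%), Adnp and the HP1 gene Cbx1. None of these genes passed in edgeR or DESeq2, and limma-voom called Bptf higher. The shares were 6.67% for 45 Wnt ligand and receptor genes (Ryk, Fzd2 and Fzd9), 9.52% for 42 beta-catenin pathway genes (Csnk1a1, Pygo1, Tcf7l2 and Lgr5), and 10.7% for 56 autism risk genes (Scn2a, Scn1a, Dscam, Arid1b, Tcf7l2 and Adnp). All 4 beta-catenin pathway genes had an unadjusted p under 0.05 in edgeR, where 22.2% of all tested genes did. None of them passed there, and DESeq2 and limma-voom each called 2 higher. Their median log2 fold change was 0.54, beside 0.03 for the tested genes of the list. None of the Wnt or autism genes passed in edgeR or limma-voom, and DESeq2 called Tcf7l2 higher. The windows of Stag2, Pds5a, Bptf, Adnp and Csnk1a1 also held a shared peak.

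Of the 75 mitochondrial ribosome genes found, 9 had a HET-only promoter peak (12%). Mrps21 and Mrps17 fell and the other 7 did not pass, and the median log2 fold change of the 9 was -0.11 beside -0.07 for the list. The lists with the lowest shares were the interferon and antigen presentation list, with 0 of 40, the clustered protocadherins, with 1 of the 57 found (Pcdhgb8), and the germline list.

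The promoters under these peaks were CpG-rich, short of the level at shared peaks. Of 32851 RefSeq promoter entries, 1053 overlapped a HET-only peak. Their median G and C content was 60.3% and their median ratio of observed to expected CpG 0.722, with 65.0% above a ratio of 0.6. Entries under a shared peak and no HET-only one had medians of 62.7% and 0.812, with 81.7% above 0.6. Entries with a WT-only peak, at 0.701 and 63.5%, resembled the HET-only ones, and 13.1% of entries with no peak were above 0.6. Genes of HET-only entries above a ratio of 0.6 had a median level of 4.42 CPM per kb of exon and 5 higher and 3 lower calls among 557 tested. Those at or under 0.6 had 2.26 CPM per kb and 7 higher and 0 lower calls in edgeR among 273 tested. At unadjusted p under 0.05, 46 of the latter were higher and 27 lower, with 22 and 8 calls by DESeq2 and 28 and 18 by limma-voom. For the 557, DESeq2 called 30 and 22 and limma-voom 35 and 30. Over all tested genes, edgeR called 0.587% higher and 0.382% lower, and 22.2% stood at unadjusted p under 0.05. DESeq2 called 4.54% and 4.36% of the genes it tested, and limma-voom 5.16% and 5.29%.

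Motif matches in the 300-base entries mostly lay between those of shared-peak entries and all entries. The GC box was found in 62.9% of HET-only entries, 69.5% of shared ones and 35.7% of all entries, and the ETS motif in 16.4%, 20.2% and 8.86%. The NRF1 half-site was found in 4.37%, 8.66% and 3.91%, and the CRE half-site in 9.97%, 13.8% and 7.51%. The E-box was at 11.3%, 10.7% and 7.15%, and the E2F motif at 37.9%, 39.5% and 20%. The TATA motif, at 6.84%, 5.54% and 13.6%, and the AP-1 motif, at 4.65%, 3.59% and 7.81%, were less common under peaks than in all entries. CCAAT was found in 33.9%, 40.3% and 37.4%. In entries with a WT-only peak and no HET-only one, the GC box stood at 60.0%, ETS at 15.4%, the NRF1 half-site at 4.62% and the CRE half-site at 5.0%. There the E-box stood at 12.7%, E2F at 34.2%, TATA at 4.62%, AP-1 at 6.92% and CCAAT at 35.4%.

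The CTCF core was added to the search after the sequence under the Prss41 peak was seen. It was found in 8.93% of HET-only entries, 8.48% of shared ones, 11.5% of WT-only ones and 5.49% of all entries. Of the 77 tested genes with a match in a HET-only entry, 5 were higher in HET and 0 lower (6.49% in either direction, where 0.97% of all tested genes were called): Prss41, Slc1a6, Zfp783, Spef2 and Fhod1. Of the 753 tested genes with a HET-only entry and no match, 7 were higher and 3 lower. Of the 710 with a match under a shared peak and no HET-only one, 3 were higher and 4 lower, and of the 336 with a match and no peak, 6 and 0. Of the 1137 tested genes with a match in any entry, 14 were higher and 4 lower (1.58% in either direction). Among the 12766 tested genes with any entry, 1.02% were called. At unadjusted p under 0.05 in edgeR, 20 of the 77 were higher and 7 lower, and of the 336, 56 and 26. For all 18050 tested genes these counts were 2121 and 1886. By DESeq2 the calls were 10 and 4 of the 77 and 42 and 26 of the 753, and by limma-voom 11 and 3 and 52 and 45. For the 336 they were 22 and 7 by DESeq2 and 23 and 13 by limma-voom. As the motif was picked on a called gene, and all of the 5 but Prss41 lost their calls when single libraries were left out, these counts are a description and were not tested.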

How the data were processed

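RNA of 7 HET and 7 WT frontal cortices was used with 1 ATAC-seq peak list per genotype. The deposited RNA tables hold raw read counts, which the authors made with featureCounts 2.0.1 over exons of Ensembl GRCm38 release 102 without strand, per the file headers, so reads of overlapping genes on opposite strands cannot be told apart. STAR, Trimmomatic, Subread and DESeq2 are named for them, per the submitters' processing notes. The deposited peak lists give positions alone, on mm10 (GRCm38). For ATAC-seq, the submitters' processing notes name bcl2fastq 2.20, MACS3, Bowtie2 2.4.4, deepTools and SAMtools 1.9. No source used here gives the caller settings. The name of each list carries 2 sample labels, and the protocol gives n = 2. The PAT, Control and 4 Hi-C samples were not used here.

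Gene starts were the start (plus strand) or end (minus strand) of each of 55487 gene records, of which 55141 matched a symbol. The 18050 genes kept by filterByExpr were compared by the robust two-sided quasi-likelihood test of edgeR 4.0.16 on TMM-scaled libraries, with a genotype term, and with Benjamini-Hochberg adjustment over all of them and a threshold of 0.05. CPM values are TMM-scaled, errors are SD over libraries, and marker means use log2 of CPM plus 0.5. The test was checked on simulated data. Counts of all 91 library pairs differed by at least 9.38 chi-square per degree of freedom, so no library was a copy of another.

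The named genes were all called ones, the 5 largest rises and the 5 largest falls at a mean log2 CPM of at least 0 outside predicted genes, the genes of the 10 widest peaks, the 10 highest levels, up to 2 per list for 27 lists, Adnp, and the peaks nearest the rule's limit. Some results of the rule, with 1 of the lists, are not reported here. The members, lists and rules were chosen with earlier results of these data known. Alternatives were DESeq2 1.42.0, limma-voom (limma 3.58.1), other filters, scaling and thresholds, marker covariates, a replicate block, each library left out, windows of 500 bp and 2 kb, 50% overlap, a WT-free distance of 1 kb, and equal numbers of the widest peaks.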

Additional observations from a re-analysis of the deposited data

Results flagged for a closer look

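Among the 32 named genes checked in 64 groups of 7 libraries, 7 groups held a library far from the others. The limit used is passed by about 1 in 20 groups if values follow a normal curve, which CPM need not do. Tcf7l2, Tph2, Slitrk6 and Fosb were named for large fitted changes in these same libraries. The number of flagged groups therefore cannot be set against that rate. Nbeal2 RNA was highest in WT 4, at 21.9 CPM with the next WT library at 15.7 CPM. Tcf7l2 stood at 261 CPM in HET 4, with the next HET library at 93.8 CPM, and at 48.1 CPM in WT 7, with the next WT library at 20.5 CPM. Tph2 stood at 51.1 CPM in HET 1, with the next at 21.2 CPM, and at 12.4 CPM in WT 7, with the next at 2.76 CPM. Slitrk6 stood at 43.3 CPM in HET 4, with the next at 15.2 CPM. Fosb was highest in WT 5, at 71.1 CPM with the next WT library at 41.5 CPM. HET 4 was also the highest HET library for the summed thalamic markers, of which Tcf7l2 is one, and the part of these markers in the values was not tested.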

How the results depend on the processing

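No direction reversed in any of the 702 alternatives for single genes (404 kept their side of the threshold, 276 lost it and 22 gained it). Of 118 alternatives for counts and medians, 48 moved little. The 1963 peaks, 2218 genes, 18 higher and 5 lower calls and median level of 1.69 CPM per kb became 988, 1145, 9, 3 and 2.51 with the widest HET peaks in equal number. The level became 2.23 with a window of 500 bp, 1.13 with 2 kb, 2.11 with overlap counted from 50% of the peak, 1.47 with no WT peak within 1 kb and 1.54 without genes that also had a shared peak. Higher, lower and all-gene calls (18, 5 and 175) were 89, 77 and 1513 with DESeq2, 110, 110 and 1886 with limma-voom, 11, 2 and 106 with no filter, and 70, 59 and 1195 at adjusted p under 0.1. With the marker means they were 2, 1 and 17, and the median log2 fold change was 0.002 instead of 0.014. A filter of 1 CPM in 7 libraries gave 10 lower calls. With each library left out in turn, higher calls ran from 1 to 90, lower calls from 0 to 94, all-gene calls from 11 to 1672 and the median from 0.009 to 0.024. The replicate numbers are not stated to pair the mice, and same-numbered libraries correlated at -0.348 to 0.357 in their deviations, with no HET library closest to its own number. With the replicate block the calls were 1 (Prss41, adjusted p = 0.00668 in edgeR), 0 and 10. The cause of these shifts was not tested. Peak depth is unknown, which limits every count of members, and genes under the low-count filter (564 of 2218) have no test.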
